A study of Mus musculus with 9 samples.

Results

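The 6 libraries compared here came from HEI-OC1, an auditory cell line of the mouse that was immortalised from cochlear cells of the organ of Corti, where sound is detected. They are the 3 untreated libraries (control) and the 3 libraries from cells given hydrogen peroxide (H2O2), chosen by the treatment named in their labels, out of 9 libraries in 3 groups. The remaining 3 libraries, from cells that received a nanoreactor before H2O2, were not used. Neither the H2O2 dose nor the exposure time is given in the sources used here, and both groups share the cell line and have no other agent in their labels. The replicates are called biosamples, and nothing says that they came from separate cultures, so p-values below measure the spread between these samples, which may be technical. RNA was extracted with TRIzol, selected for poly(A) and sequenced as strand-marked paired reads of 150 bp, and whether counting used the strand is not given.

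Hydrogen peroxide is a small oxidant that crosses membranes and is removed in cells by catalase, glutathione peroxidases and peroxiredoxins. In excess it oxidises cysteines in proteins and bases in DNA, and cells are known to answer with heat shock chaperones, p53 targets that halt the cell cycle, and antioxidant genes. In the cochlea, oxidants made after noise or ototoxic drugs are known to injure hair cells. The description below centres on well-expressed genes, those with a mean of at least 5 FPKM (reads per transcript length and library size) in control or in H2O2, and on gene families outside the usual stress lists.

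Library totals lay between 55395418 and 64993443 deposited counts in control and between 59996980 and 65666622 in H2O2. Spearman correlations over genes were 0.994 within groups and 0.979 to 0.981 between them, as a description. The label was checked against markers of cell types. Of 14 hair cell markers, 0 reached 5 FPKM and 6 were listed at 0 in all 6 libraries, among them Atoh1, Otof, Slc26a5 and Tmc1, so that the defining markers of mature hair cells were absent or near absent. Their summed level was 1.89 to 2.04 FPKM in control and 1.31 to 1.47 in H2O2. Most of it was Myo6, at 1.84 FPKM in control and 1.32 in H2O2, the only marker of this set that was called. Its log2 fold change of -0.47 became -0.05 and -0.01 with the length offsets described below, and the call was lost. Of 10 supporting cell markers, Lfng and Cdkn1b reached 5 FPKM, and Sox2, Prox1 and Hes5 were listed at 0. The set summed to 39.5 to 39.8 FPKM in control and 31.7 to 32.9 in H2O2, mostly Cdkn1b at 27.4 and 25 FPKM. Lfng, Cdkn1b and Slc1a3 were called lower without and with the offsets, Slc1a3 at -1.28, then -0.96 and -0.97. Epithelial, glial, neuronal and endothelial markers all stayed under 5 FPKM. Of 10 fibroblast and mesenchyme markers, 8 reached 5 FPKM, with sums of 998 to 1005 FPKM in control and 1064 to 1072 in H2O2. That sum was carried by Vim, which rose from 577 ± 4.13 to 781 ± 5.1 FPKM (SD, n = 3), while 6 markers fell: Col1a1, Col1a2, Col3a1, Pdgfra, Pdgfrb and Prrx1. The falls of Col1a2 and Prrx1, both -0.42 in log2 fold change, did not hold with the length offsets described below. There Col1a2 stood at 0.01 and 0.14 and Prrx1 at -0.02 and 0.00. Col1a1, Col3a1, Pdgfra and Pdgfrb stayed called lower, and Twist1 was called lower too, at -0.28 and -0.34. Macrophage markers summed to 2.15 to 2.59 FPKM in control and 3.66 to 5.08 in H2O2, with Ptprc, Adgre1 and Aif1 listed at 0; Cd68, also a lysosomal protein of other cells, went from 0.897 to 3.05 FPKM and Csf1r stood at 1.4 and 1.44 FPKM and was not called. In bulk samples fewer cells of a type and less RNA per cell cannot be told apart.

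H2O2 changed most well-expressed genes by a small amount and few of them by a large one. Of 16044 genes tested with edgeR's quasi-likelihood test, 8727 were called at a Benjamini-Hochberg adjusted p under 0.05, which is 54.4%. The rises numbered 4332 (27%) and the falls 4395 (27.4%). Among 7742 well-expressed genes 6082 were called, 78.6%, with 3516 rises (45.4%) and 2566 falls (33.1%), and the groups did not overlap in CPM in 6317 of them, 81.6%. A single call in this set is therefore close to what a well-expressed gene shows on average. The level filter was passed in both groups by 6878 genes, only in control by 563 and only in H2O2 by 301, and genes that passed through 1 group had to be higher there.

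The sizes differed between the directions. A change of less than 1.25-fold held for 1552 of the called rises and 1019 of the called falls. At 2-fold or more there were 44 rises and 146 falls, and at 3-fold or more 16 rises and 42 falls. These counts include the 33 genes of the mitochondrial chromosome, of which 32 were called lower. Their median log2 fold change was -3.18, so they make up a good part of the large falls. Their median length was 71 bases, so this value is set largely by very short genes and need not hold for the longer messages. Together they took 2.66% of counts in control and 1.01% in H2O2. The median log2 fold change was 0.08 over well-expressed genes and 0.01 over all tested genes. It differed by level: genes of 5 to 20 FPKM had a median of -0.01, genes of 20 to 100 FPKM a median of 0.18, and the 500 genes of 100 FPKM or more a median of 0.39, with 408 rises and 65 falls. These bands also differed in length, with median longest transcripts of 3472, 2613 and 1615 bases, and with the second of the length offsets described below their medians were -0.01, 0.02 and 0.09.

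**Figure D1:**
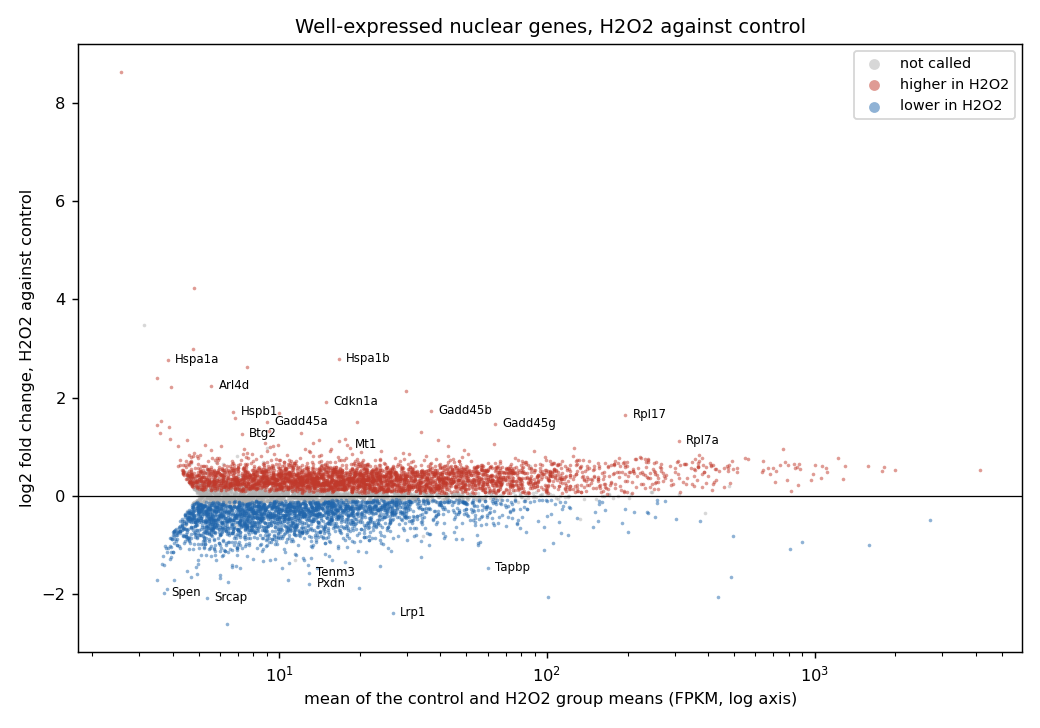
Each point is a well-expressed nuclear gene, with the mean of both group means in FPKM on a log axis and the edgeR log2 fold change of H2O2 against control; red and blue mark calls and grey marks genes not called. Named protein-coding genes reach 2.78 (Hspa1b) and -2.38 (Lrp1), and points at 100 FPKM or more lie mostly above 0; the unnamed points above 2.78 are small noncoding RNAs and genes whose groups overlap.

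The largest rises among well-expressed nuclear protein-coding genes included chaperone, growth arrest and ribosomal genes. Hspa1b, which encodes the stress-inducible chaperone HSP70 (ENSMUSG00000090877, chromosome 17, 34956436 to 34959238 on GRCm38), was measured at 4.02, 4.35 and 4.44 FPKM in control and at 28.7, 29.8 and 28.7 FPKM in H2O2. It rose 6.86-fold (log2 fold change 2.78, SE 0.0515, adjusted p = 1.26e-11). Its neighbour Hspa1a encodes nearly the same protein, so the division of reads between them is uncertain, and it was at 0.882 to 1.03 FPKM in control and 6.35 to 6.91 FPKM in H2O2. Hspb1, a small heat shock protein, stood at 3.31, 2.49 and 3.67 FPKM in control against 9.55, 9.32 and 11.9 FPKM in H2O2, a rise of 3.26-fold. For these chaperones every H2O2 library lay above every control library, which the rule for naming genes required.

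Growth arrest genes formed a second group. Cdkn1a, an inhibitor of cyclin-dependent kinases and a p53 target (ENSMUSG00000023067, chromosome 17, 29090976 to 29100727), was at 6.13, 6.02 and 6.8 FPKM in control and 22.4, 24.8 and 23.6 FPKM in H2O2, a rise of 3.77-fold. All 3 Gadd45 genes, whose small proteins act in growth arrest and stress kinase signalling, were among the 15 largest rises. Gadd45b had 17.1, 16.8 and 17.5 FPKM in control and 57.3, 55.8 and 57.2 in H2O2 (log2 fold change 1.74, SE 0.0371). Gadd45g moved from 34.2 ± 1.1 to 93.6 ± 0.718 FPKM (SD, n = 3) and Gadd45a from 4.74 ± 0.454 to 13.3 ± 0.668 FPKM. Spread within groups was small beside each difference. Btg2, an antiproliferative protein that binds the CCR4-NOT deadenylase, rose 2.4-fold to 10.2 ± 0.549 FPKM, Pdrg1 2.05-fold, and Psrc1, a spindle protein, 2.09-fold.

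Arl4d, a small GTPase of the ARF-like family at the plasma membrane (ENSMUSG00000034936, chromosome 11, 101665541 to 101667832), had the third largest rise. Its values were 1.76, 1.6 and 2.53 FPKM in control and 7.98, 10 and 9.53 FPKM in H2O2, a change of 4.69-fold (adjusted p = 5.17e-07). Txnip, which binds and inhibits thioredoxin, rose 2.22-fold from 2.81 ± 0.112 to 6.2 ± 0.376 FPKM. Mt1, a metallothionein that binds zinc, rose 2.05-fold from 11.8 ± 0.249 to 24.1 ± 1.55 FPKM. Rpl17 and Rpl7a, proteins of the large ribosomal subunit, were the least even of the 15. Rpl17 was at 82.6, 98.3 and 107 FPKM in control and 368, 179 and 345 FPKM in H2O2, where replicate 2 stood apart, and its log2 fold change of 1.64 became 1.90 without that library. Ribosomal protein genes have many processed pseudogenes, so the assignment of their reads is uncertain, as it is for overlapping and antisense genes where counting without the strand is possible.

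Promoters were read for the genes with the largest rises, of which 14 of 15 matched a RefSeq entry as the genes with the largest values above. The last 150 bases before the start are shown for 4 of them, from RefSeq on GRCm38.p6, in the direction of transcription. Capitals mark matches, on either strand, to the heat shock unit pair GAANNTTC, the CCAAT box CCAAT, the cyclic AMP element TGACGTCA, the TATA box TATAAA and ACATGTC, a core of the p53 site that was added to the search after the Cdkn1a sequence had been seen.
Hspa1b (chr17:34959239-34959388, minus strand): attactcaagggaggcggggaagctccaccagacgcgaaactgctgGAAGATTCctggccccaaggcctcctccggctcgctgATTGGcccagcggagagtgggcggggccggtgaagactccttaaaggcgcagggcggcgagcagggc
Arl4d (chr11:101665391-101665540, plus strand): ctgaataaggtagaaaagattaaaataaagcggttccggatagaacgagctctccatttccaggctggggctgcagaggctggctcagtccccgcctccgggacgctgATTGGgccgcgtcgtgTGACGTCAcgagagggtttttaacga
Cdkn1a (chr17:29090829-29090978, plus strand): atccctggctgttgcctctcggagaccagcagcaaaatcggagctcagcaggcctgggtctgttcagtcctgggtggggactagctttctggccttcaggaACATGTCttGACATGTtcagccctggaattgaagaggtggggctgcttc
Gadd45b (chr10:80929941-80930090, plus strand): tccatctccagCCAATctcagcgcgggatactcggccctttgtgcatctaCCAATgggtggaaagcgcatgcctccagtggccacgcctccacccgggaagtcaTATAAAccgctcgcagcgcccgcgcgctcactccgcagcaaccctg

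The search covered 250 bases before each start. GAANNTTC was found in the promoters of Hspa1a, Hspa1b and Hspb1, 3 of 14, against 7.73% of 27025 RefSeq genes and 0 of 13 matched genes with the largest falls. CCAAT was present in 10 of 14 rises and 5 of 13 falls, beside 37.5% of all RefSeq genes. TGACGTCA was found in Arl4d and Btg2 among the rises and Tenm3 among the falls, against 1.77% of all RefSeq genes. TATAAA was found in Gadd45b and Gadd45g among the rises and in Ackr3 and Tnrc18 among the falls, against 14.3% of all RefSeq genes. For Cdkn1a the table holds an upstream and a downstream start, and the pair of ACATGTC matches lies before the upstream one; 1.89% of all RefSeq genes hold that core. AP-1, searched as TGANTCA, was in 0 of 14 rises and 0 of 13 falls, and the E-box CACGTG in Gadd45b and Gadd45g. Of all RefSeq genes 7.82% held the AP-1 letters and 6.86% the E-box. The named genes were drawn from well-expressed protein-coding genes, of which 5750 had a promoter entry. Among these, 5.57% held GAANNTTC, 41% CCAAT, 3.15% TGACGTCA and 7.01% TATAAA. For ACATGTC the share was 0.783%, for TGANTCA 4.59% and for CACGTG 10.5%. A match describes letters and not bound sites.

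Among the largest falls were genes for large membrane receptors and for nuclear proteins. Lrp1, a giant endocytic receptor of the LDL receptor family (ENSMUSG00000040249, chromosome 10, 127538161 to 127621148), was at 44, 44.3 and 45.3 FPKM in control and 8.43, 8.61 and 8.37 FPKM in H2O2. It fell 5.22-fold (log2 fold change -2.38, SE 0.023, adjusted p = 5.67e-14). Pxdn, peroxidasin, a haem peroxidase that uses hydrogen peroxide to cross-link collagen IV (chromosome 12, 29937608 to 30017658), had 20, 20.6 and 19.6 FPKM in control and 5.91, 5.76 and 5.65 FPKM in H2O2, a fall of 3.44-fold. Both groups were tight and far apart for these genes. Tenm3, a teneurin that joins neighbouring cells, fell 2.96-fold from 19.3 ± 0.306 to 6.48 ± 0.179 FPKM, and Notch3, a Notch receptor, 3.15-fold from 9.09 ± 0.211 to 2.86 ± 0.0484 FPKM. Abca2, a lipid transporter, fell 2.87-fold.

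Nuclear proteins followed, with longest transcripts from 9296 bases (Med13l) to 19823 bases (Kmt2d), in the length range where most well-expressed genes were called lower. Srcap, the motor that places the histone variant H2A.Z, was at 8.21, 9.56 and 8.37 FPKM in control and 1.03, 2.15 and 2.92 FPKM in H2O2. Its H2O2 libraries spread more than those of other falls, and its log2 fold change of -2.08 ranged to -1.77 without H2O2 replicate 1 and -2.43 without H2O2 replicate 3. Spen, an RNA-binding corepressor, fell 3.92-fold to 1.49 ± 0.127 FPKM. Kmt2d, which methylates lysine 4 of histone H3 at enhancers, fell 3.71-fold to 1.6 ± 0.0886 FPKM. Med13l, of the kinase module of Mediator, fell 3.28-fold, and the nuclear proteins Tnrc18 and Bahcc1 fell 3.28-fold and 3.24-fold. Wdfy3, an adaptor for the autophagy of aggregates, fell 3.02-fold.

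A pair of the falls were in genes with transcripts of ordinary length. Ackr3, a scavenging receptor for the chemokine CXCL12, was at 7, 7.26 and 6.93 FPKM in control and 2.14, 2.42 and 2.15 FPKM in H2O2, a fall of 3.12-fold with a longest transcript of 3065 bases. Tapbp, tapasin, which loads peptides on MHC class I, was at 84.4, 89.3 and 92.1 FPKM in control and 30.7, 32.4 and 32 FPKM in H2O2, a fall of 2.77-fold with a longest transcript of 2898 bases. The other 13 falls had longest transcripts from 6614 bases (Pxdn) to 19823 bases (Kmt2d), and the 15 rises from 930 bases (Hspb1) to 2967 bases (Hspa1a).

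**Figure D2:**
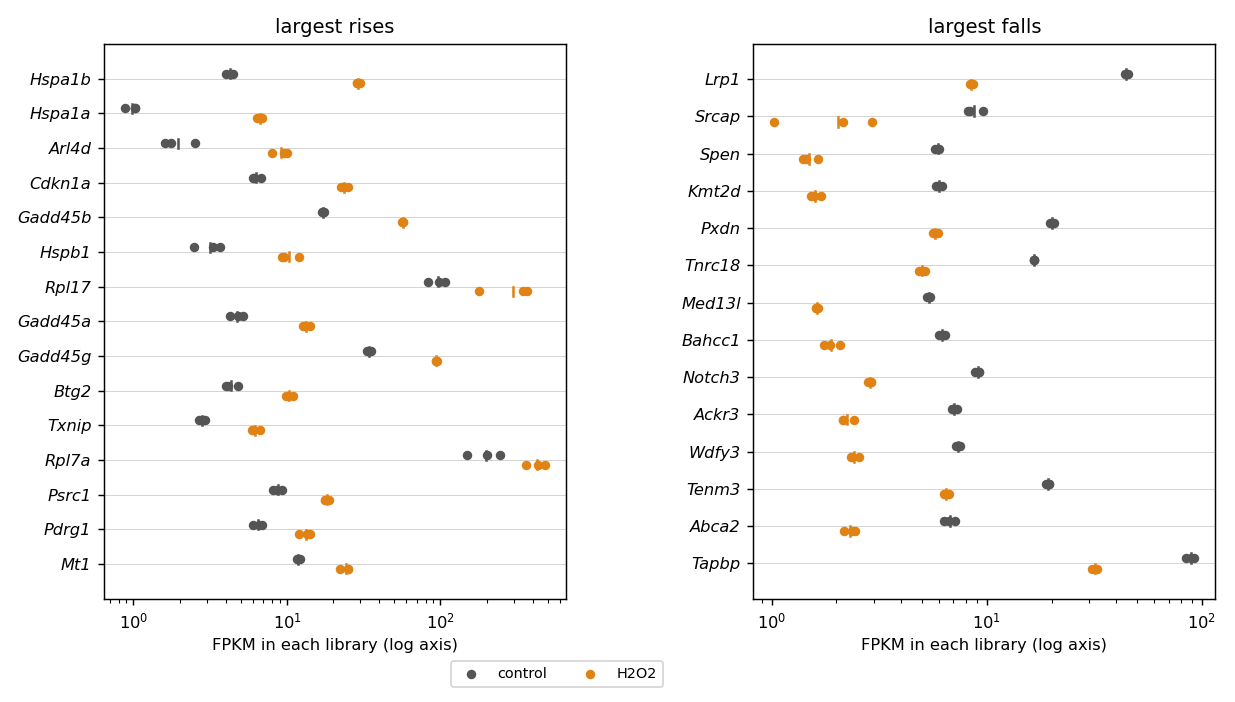
FPKM on a log axis in each of the 3 control (grey) and 3 H2O2 (orange) libraries for the 15 largest rises and 14 of the 15 largest falls, with a tick at each group mean. No gene shows overlap between its groups, as the rule required, and Rpl17, Rpl7a and Srcap have the widest spread between replicates.

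The largest gains and losses in FPKM units are given for protein-coding genes, a listing made after the values had been seen. Eef1a1, the elongation factor that brings aminoacyl-tRNA to the ribosome, was at 3446, 3402 and 3368 FPKM in control and 4899, 4779 and 4924 FPKM in H2O2, a rise of 1.44-fold. Actg1, cytoplasmic gamma actin, rose 1.46-fold from 1634 ± 15.8 to 2361 ± 21 FPKM. The ribosomal protein genes Rps2, Rplp1, Rpl8, Rpl19 and Rpl23a rose between 1.52-fold and 1.7-fold, and Lgals1, galectin-1, rose 1.57-fold from 682 ± 24.6 to 1064 ± 38.8 FPKM. Among the losses, Ccn1, a secreted matrix-associated regulator, was at 623, 638 and 639 FPKM in control and 355, 354 and 357 FPKM in H2O2, a fall of 1.77-fold. Fn1, fibronectin, fell 1.66-fold from 251 ± 1.84 to 149 ± 1.37 FPKM, Col1a1, a chain of collagen I, 1.46-fold, and Thbs1, thrombospondin-1, 1.38-fold. Scd2, a fatty acid desaturase, fell 1.43-fold, the linker histone H1f0 1.34-fold, the imprinted gene Peg10 1.94-fold and Prrc2a 2.15-fold.

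By the rule that took all nuclear genes, pseudogenes entered both lists. The losses included Gm28661, Gm10925, Gm29216, Gm28437, Gm10222 and Gm28439, which lie side by side on chromosome 1 between 24611535 and 24616197, are annotated as unprocessed pseudogenes and form a nuclear copy of mitochondrial sequence, so their reads cannot be told apart from those of the mitochondrial chromosome. Gm28661 was at 2129 ± 64.9 FPKM in control and 1060 ± 22.9 FPKM in H2O2. Genes of the mitochondrial chromosome took 2.66 ± 0.069% of counts in control and 1.01 ± 0.00314% in H2O2, and 32 of 33 were called lower. Gains included the processed pseudogenes Rpsa-ps10, Gm13394 and Gm15772 and the annotated miRNA locus Gm23935. Cytosolic ribosomal protein genes took 3.55 ± 0.0623% of counts in control and 5.57 ± 0.0544% in H2O2, and processed pseudogenes 1.98 ± 0.0276% and 2.68 ± 0.0764%. For each of these shares the groups did not overlap, and the two-sided exact permutation test over 3 against 3 libraries gave p = 0.1, the smallest it can give. Of 448 well-expressed processed pseudogenes 282 were called higher and 11 lower. With the length offsets described below the direction turned, from 161 higher and 37 lower with the first to 34 higher and 112 lower with the second.

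The change followed transcript length. Over 7101 well-expressed protein-coding genes the Spearman correlation of the longest transcript's length with the log2 fold change was -0.734, across genes, which share libraries and are not independent replicates. In the shortest length decile (374 to 1350 bases) the median log2 fold change was 0.48, with 656 rises and 6 falls among 711 genes. In the longest decile (6369 to 23495 bases) it was -0.58, with 35 rises and 630 falls among 709 genes. The order held at each step between them. Length of the gene on the chromosome correlated less strongly, at -0.559, the number of exons at -0.452 and GC content at 0.0937. Exon number and GC content, like length, are those of the longest transcript, which need not be the one expressed. For Vim, Cd63 and Dynll1 that transcript has 1 exon. Among transcripts of 4958 bases or more the median ran from -0.25 for gene spans of 7661 to 15829 bases to -0.54 for spans of 56506 bases or more. The mean length of transcript behind a count was 3973 ± 10.2 bases in control and 3529 ± 11.3 bases in H2O2 (exact permutation p = 0.1, the smallest possible). The labels state an integrity limit for the RNA and no value for each library, so integrity could not be set beside this trend.

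The families below are therefore given also with offsets for length and GC content in the edgeR fit. The length in these offsets was the one implied by the deposited counts and FPKM, not that of the longest transcript. The first offsets were fitted on all tested genes and left a correlation of -0.348 with the longest transcript's length. The second, added after this was seen, were fitted on well-expressed protein-coding genes and left -0.185. Because the lengths differ, these remainders do not show how fully the offsets removed their own trend. With the first offsets 44.1% of well-expressed genes were called higher and 26.5% lower, and with the second 34.1% and 31.9%. Of the plain calls 2728 rises and 1809 falls kept their direction with the first offsets, 774 rises and 489 falls were no longer called, 10 rises became falls and 268 falls became rises. Calls in the same direction in all 3 fits numbered 1945 rises and 1683 falls. Lrp1 had a log2 fold change of -1.84 and -1.60 with the first and second offsets, Ackr3 -1.70 and -1.81, Tapbp -1.50 and -1.47, Hspa1b 2.69 and 2.68, and Cdkn1a 1.84 and 1.84. Other named changes kept their direction but shrank by a larger share. Kmt2d went from -1.89 to -1.32 and -1.05, and Mt1 from 1.04 to 0.73 and 0.57. Of the gains in FPKM, Rpl23a went from 0.66 to 0.40 and 0.10, and Lgals1 from 0.65 to 0.37 and 0.18. The offsets remove any biological change that runs with length together with any technical one, and which part is which was not tested.

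**Figure D3:**
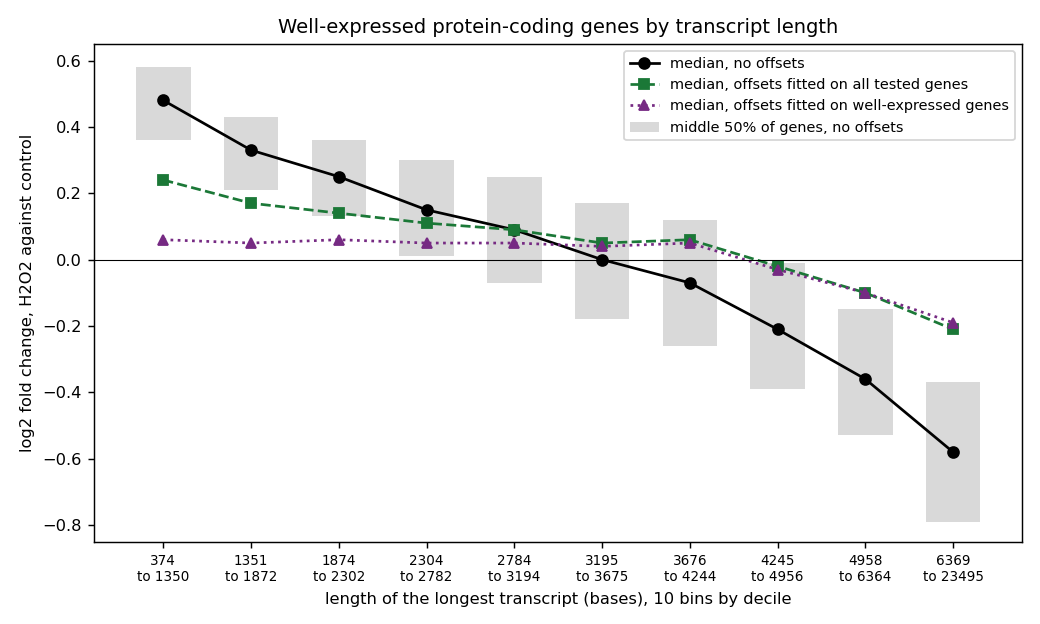
Median log2 fold change of well-expressed protein-coding genes in 10 bins of transcript length, without offsets (black, with the middle 50% of genes as grey bars) and with the first (green squares) and second (purple triangles) length and GC offsets. Without offsets the median runs from 0.48 in the shortest bin to -0.58 in the longest, and with the second offsets from 0.06 to -0.19.

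Of 59 gene families, 55 had at least 5 well-expressed members, 1074 genes in all, and these were described by role. Their medians were above that of all well-expressed genes in 23 and below it in 32; in all 3 fits 18 stayed above and 22 below. Counts below are of well-expressed members, to be read against 45.4% rises and 33.1% falls in the plain fit. The parenthesis after each count gives the rises and falls with the first offsets, then those with the second.

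Chaperonin, prefoldin and COP9 genes mostly rose. The CCT chaperonin folds actin and tubulin, and prefoldin hands it the unfolded chains. All 13 well-expressed CCT and prefoldin genes of 15 in the family rose, with a median of 0.38 in log2 fold change (13 and 0, then 9 and 1). Cct2, a chaperonin subunit, was at 215, 208 and 204 FPKM in control and 272, 265 and 268 FPKM in H2O2, and Pfdn6, a prefoldin subunit, moved from 32.7 ± 2.64 to 49.5 ± 1.86 FPKM. Groups did not overlap for either gene. In the COP9 signalosome, which removes NEDD8 from cullins, 8 of 9 members rose, with a median of 0.34 (8 and 0, then 7 and 1), led by Cops9 at 1.41-fold, a call lost with the first offsets (adjusted p = 0.0978). Cops2 was the member not called.

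Ubiquitin enzymes divided by type. Of 29 ubiquitin-conjugating E2 enzymes 23 rose and 4 fell (22 and 4, then 16 and 5); Ube2a, which works in DNA damage tolerance, rose 1.42-fold, while Ube2o, a large hybrid E2 and ligase, fell 1.62-fold from 20.8 ± 0.658 to 12.8 ± 0.33 FPKM. Ubiquitin-specific proteases, which remove ubiquitin, went mostly the other way, with 2 rises and 21 falls among 26 (4 and 13, then 6 and 13), and Usp34 fell 1.8-fold. F-box proteins and cullins had 8 rises and 20 falls among 39 members (4 and 16, then 4 and 21), of which Fbxo11, a substrate receptor, fell 1.71-fold from 12.5 ± 0.256 to 7.22 ± 0.276 FPKM. The RING finger Rnf genes were mixed, with 16 rises and 14 falls among 38 (12 and 14, then 11 and 17), and Trim ligases had 3 rises and 10 falls among 16 (4 and 7, then 5 and 8). Prolyl isomerases, which turn proline bonds during folding, had 18 rises and 4 falls among 25 (16 and 1, then 14 and 2). Ppia, cyclophilin A, was at 611, 577 and 570 FPKM in control and 906, 881 and 907 FPKM in H2O2, a rise of 1.54-fold.

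Genes for protein import into mitochondria had mostly rises, while most genes of the mitochondrial chromosome fell. Import itself was not measured. Of 24 TOM and TIM genes, the translocases of the outer and inner membrane, 22 rose and 1 fell, with a median of 0.46 (20 and 0, then 13 and 1). Tomm22, the central receptor, was at 60.5, 63.4 and 60.9 FPKM in control and 85.4, 86.4 and 89.7 FPKM in H2O2. Timm17a, a channel subunit, had a log2 fold change of 0.48, and of 0.75 and 0.74 with the offsets. Tomm6 had the largest rise of the family, but its H2O2 value of 34.3 FPKM in replicate 2 stood above 18.5 and 19.7 FPKM in the others, and its log2 fold change of 0.97 was 0.63 without that library. The receptor Tomm70a, called lower at -0.06, was higher with the offsets, at 0.36 and 0.28. Mitochondrial carriers had 9 rises and 5 falls among 22 (11 and 5, then 10 and 7); Slc25a5, the ADP/ATP carrier of growing cells, rose 1.46-fold from 346 ± 2.63 to 503 ± 9.67 FPKM.

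Other transport families differed from one another. The V-ATPase, the proton pump of lysosomes and endosomes, had 12 rises and 3 falls among 16 members (11 and 0, then 10 and 2), with Atp6v1f up 1.53-fold. Sodium pump and other P-type ATPases had 1 rise and 11 falls among 13 (3 and 7, then 2 and 9). Atp13a3, a polyamine transporter, fell 1.78-fold. ABC transporters had 3 rises and 7 falls among 14, a balance that turned with the offsets (5 and 3, then 6 and 4), and 0 potassium channel genes of 94 reached 5 FPKM.

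**Figure D4:**
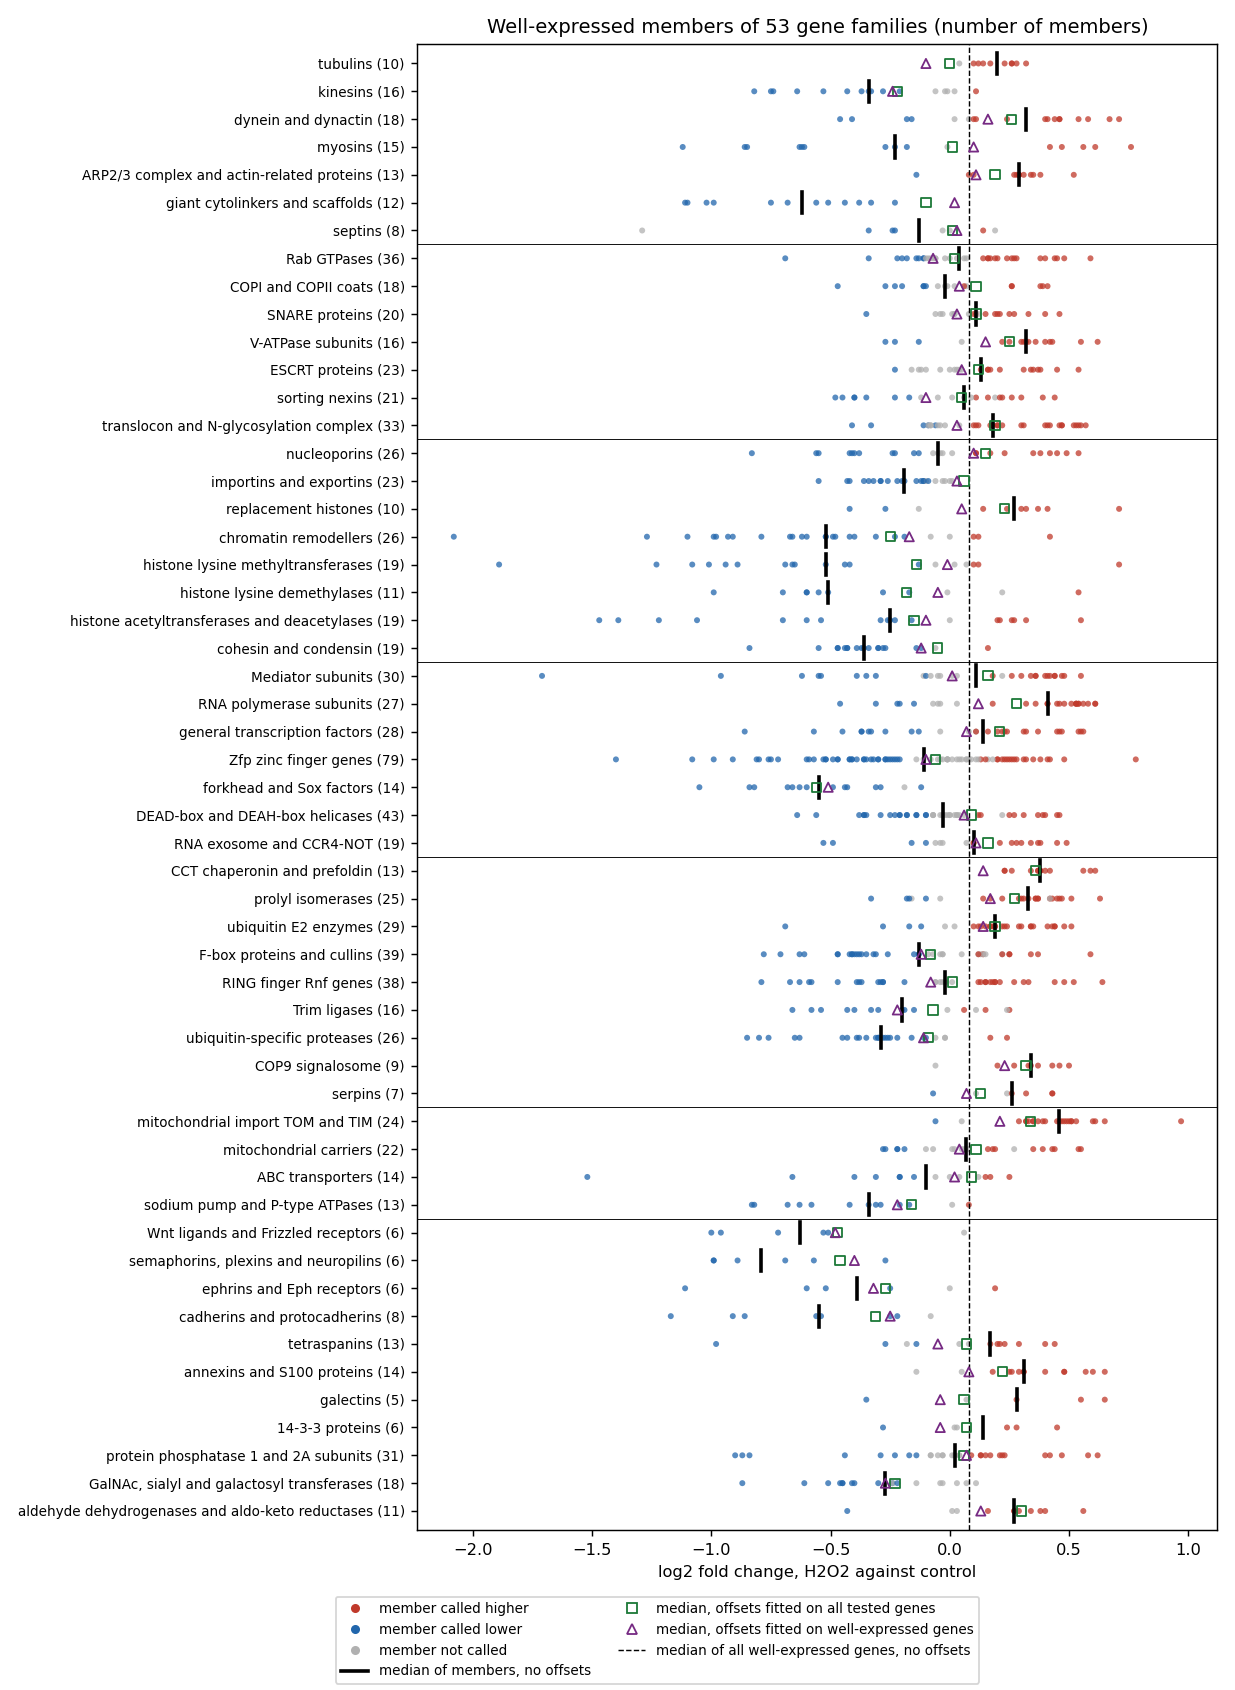
Log2 fold change of each well-expressed member (points, red higher, blue lower, grey not called) of 53 families, ordered by role, with the median without offsets (bar) and with the first (square) and second (triangle) offsets; the dashed line is the median of all well-expressed genes, 0.08. Points show the fit without offsets. The medians of CCT and prefoldin, COP9, and TOM and TIM lie to the right of the dashed line under each fit. Those of forkhead and Sox, Wnt and Frizzled, and semaphorin and plexin genes lie to the left of it. The median of giant cytolinkers moves from -0.62 to 0.02 with the second offsets.

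Families of transcription factors and chromatin proteins had more falls than rises in the plain fit. Forkhead and Sox factors, DNA-binding regulators of development, had 0 rises and 13 falls among 14 well-expressed members of 63 in the genome, with a median of -0.55 (0 and 13, then 0 and 12). Foxk1, a repressor of autophagy genes, was at 6.85, 7.14 and 7.11 FPKM in control and 3.48, 3.22 and 3.44 FPKM in H2O2, a fall of 2.07-fold. Foxm1, a driver of mitotic genes and the highest of the family, fell 1.24-fold from 59.3 ± 0.733 to 47.5 ± 0.124 FPKM. Foxc1 had a log2 fold change of -0.84, Sox9 -0.63 and Sox4 -0.66, and with the second offsets these were -0.63, -0.69 and -0.64. Foxo4 was the member not called. The Zfp zinc finger genes had 19 rises and 38 falls among 79 (19 and 31, then 15 and 38), and Zfp36l2, a zinc finger protein that promotes decay of messages, fell 1.99-fold from 73.5 ± 0.639 to 36.7 ± 0.491 FPKM. Of 3 well-expressed Hox genes 0 were called by edgeR (0 and 1, then 0 and 1).

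Among chromatin remodellers, the ATP-driven movers of nucleosomes and their partners, 3 of 26 rose and 21 fell, with a median of -0.52 (6 and 16, then 6 and 15). Chd4, the motor of the NuRD repressor, was at 84.8, 84.1 and 84.6 FPKM in control and 55.1, 55.2 and 56.2 FPKM in H2O2, a fall of 1.51-fold. The BAF subunits Arid1a (-1.27) and Arid2 (-1.10) were lower in log2 fold change with the second offsets too, at -0.72 and -0.69, while Smarcb1, a core BAF subunit, rose 1.34-fold. Histone lysine methyltransferases had 3 rises and 13 falls among 19 (5 and 10, then 7 and 9), and demethylases 1 rise and 8 falls among 11 (2 and 7, then 1 and 5). Acetyltransferases and deacetylases had 6 rises and 12 falls among 19 (6 and 12, then 7 and 11). Phf2, a demethylase of lysine 9 of histone H3, fell 1.98-fold. Setd6 (1.63-fold) and Jmjd6 (1.46-fold) rose. Cohesin and condensin rings had 1 rise and 17 falls among 19 (6 and 9, then 3 and 13), of which the cohesin loader Nipbl fell 1.79-fold.

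RNA polymerase subunits had more rises than falls, while Mediator and the general factors lay near the shares of all well-expressed genes. RNA polymerase subunits had 18 rises and 5 falls among 27, with a median of 0.41 (18 and 3, then 12 and 4). Both directions held for RNA polymerase II: Polr2f, a small shared subunit, rose 1.53-fold from 8.14 ± 0.381 to 12.4 ± 0.525 FPKM, and Polr2a, the largest subunit of RNA polymerase II, was at 52.5, 52.4 and 51.1 FPKM in control and 38.8, 37.2 and 36.6 FPKM in H2O2, a fall of 1.37-fold. Mediator, which joins activators to the polymerase, had 14 rises and 9 falls among 30 (13 and 6, then 9 and 7), from Med10 (1.47-fold higher) to Med13l. General transcription factors had 15 rises and 10 falls among 28 (17 and 8, then 12 and 9), with Taf10 up 1.47-fold and Taf4 down 1.82-fold. In the RNA exosome and CCR4-NOT, which degrade RNA, 11 rose and 4 fell among 19 (13 and 3, then 11 and 3), and Cnot1, the scaffold, fell 1.45-fold but stood at 0.01 and 0.10 in log2 fold change with the offsets.

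Calls in nuclear transport depended on the offsets. Importins and exportins had 0 rises and 17 falls among 23, with a median of -0.19, and more rises than falls with the offsets (10 and 5, then 10 and 6). Kpna2, an importin alpha of proliferating cells, was at 173, 168 and 164 FPKM in control and 138, 127 and 136 FPKM in H2O2, a fall of 1.24-fold that the offsets did not reduce (-0.39 and -0.54 against -0.32). Nucleoporins had 10 rises and 11 falls among 26 (15 and 6, then 15 and 6), with Nup35 up 1.45-fold and Pom121 down 1.78-fold. Replacement histones had 7 rises and 2 falls among 10 (6 and 3, then 5 and 4), with H2aj up 1.63-fold. DEAD-box and DEAH-box helicases had 10 rises and 17 falls among 43, a balance that turned with the offsets (20 and 11, then 20 and 15), and Ddx5, the highest of them, was not called, at 179 ± 4.79 FPKM in control and 173 ± 2.23 FPKM in H2O2.

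In the cytoskeleton, dynein and ARP2/3 genes had mostly rises and kinesins mostly falls, while tubulins and large linkers depended on the offsets. Tubulins had 9 rises and 0 falls among 10, and as many or more falls than rises with the offsets (3 and 3, then 3 and 6); Tuba1b moved from 802 ± 5.75 to 931 ± 11.7 FPKM, a log2 fold change of 0.23 that became 0.02 and -0.08. The ARP2/3 complex, which starts branched actin filaments, and actin-related proteins had 12 rises and 1 fall among 13 (12 and 0, then 7 and 1), and Arpc3 rose 1.44-fold. Dynein and dynactin had 12 rises and 4 falls among 18 (12 and 2, then 9 and 3), and Dynll1, a dynein light chain, was at 36, 36.4 and 35.3 FPKM in control and 58.4, 58.3 and 57.7 FPKM in H2O2, a rise of 1.63-fold that stayed at 0.71 and 0.62 in log2 with the offsets. Kinesins had 1 rise and 11 falls among 16 (3 and 9, then 2 and 10), with Kif1c down 1.77-fold. Giant cytolinkers and scaffolds, such as spectrins, filamins and talins, fell in 12 of 12, with a median of -0.62 (1 and 8, then 4 and 4). Plec, plectin, fell 2.16-fold from 26.9 ± 0.845 to 12.3 ± 0.104 FPKM, and Syne3, which ties the nucleus to the cytoskeleton, had a log2 fold change of -1.10, and of -0.93 with the second offsets. Myosins had 5 rises and 9 falls among 15, a balance lost with the first offsets and turned with the second (7 and 7, then 8 and 6), from Myo18a (2.17-fold lower) to a locus named Gm49909 in the deposited table and Myl12b in GENCODE (1.69-fold higher). A separate entry named Myl12b was also called higher, at a log2 fold change of 0.42. In the plain fit the rises were all Myl genes, counting Gm49909, and the falls all Myo or Myh genes.

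Membrane traffic showed mixed calls that depended on the offsets. Rab GTPases had 16 rises and 9 falls among 36, with a median of 0.04 (14 and 9, then 9 and 14); Rab34, which acts in cilium formation, was at 40.2, 40.7 and 40.4 FPKM in control and 59.7, 60 and 61.7 FPKM in H2O2, a rise of 1.51-fold. Rab43 fell 1.61-fold. COPI and COPII coats had 6 rises and 7 falls among 18 (11 and 3, then 8 and 4), and SNARE proteins 11 and 1 among 20 (9 and 3, then 5 and 4). ESCRT proteins had 12 rises and 1 fall among 23 (13 and 3, then 5 and 5), and sorting nexins 8 and 7 among 21 (6 and 7, then 5 and 10). The translocon and N-glycosylation genes, through which proteins enter the endoplasmic reticulum, had 21 rises and 5 falls among 33 (20 and 3, then 14 and 7), with Sec61g up 1.48-fold and Spcs3, the highest of them, down 1.25-fold from 265 ± 7.46 to 209 ± 7.45 FPKM.

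Receptors and adhesion proteins at the cell surface were mostly lower. Semaphorin, plexin and neuropilin genes, which guide axons and vessels, fell in 6 of 6 well-expressed members, with a median of -0.79 (0 and 5, then 0 and 5). Nrp2, a co-receptor, was at 8.52, 8.61 and 8.16 FPKM in control and 4.24, 4.41 and 3.97 FPKM in H2O2, a fall of 1.99-fold. In the Wnt group 0 rose and 5 fell among 6 (0 and 5, then 0 and 5): Lrp6, a Wnt co-receptor, fell 2-fold to 5.13 ± 0.113 FPKM, and Sfrp2, a secreted Wnt modulator, was at 103, 105 and 103 FPKM in control and 59.1, 63.9 and 64.7 FPKM in H2O2, a fall of 1.65-fold. Fzd2 was the member not called. Cadherins and protocadherins had 0 rises and 7 falls among 8 (0 and 6, then 0 and 6), led by Pcdh19, which fell 2.24-fold from 15.8 ± 0.00641 to 6.98 ± 0.155 FPKM. Ephrins and Eph receptors had 1 rise and 4 falls among 6 (0 and 4, then 0 and 6), and Efna5 fell 2.16-fold.

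Glycan assembly and small surface proteins completed the account. The GalNAc, sialyl, galactosyl and fucosyl transferases had 0 rises and 11 falls among 18, with a median of -0.27 (2 and 14, then 2 and 14). B4galt5, which makes lactosylceramide, was at 12.3, 12.9 and 12 FPKM in control and 6.6, 7.05 and 6.58 FPKM in H2O2, a fall of 1.83-fold, and St3gal5, which adds sialic acid to the same lipid, fell 1.37-fold from 34.5 ± 1.45 to 25 ± 0.65 FPKM. Tetraspanins had 7 rises and 3 falls among 13 (6 and 4, then 4 and 6): Cd63 rose 1.36-fold from 87.7 ± 0.746 to 118 ± 2.76 FPKM and Cd81 fell 1.97-fold from 32.3 ± 1.69 to 16.3 ± 0.734 FPKM. Annexins and S100 proteins, which bind calcium, had 12 rises and 0 falls among 14 (10 and 1, then 6 and 4), and S100a11 was at 929, 929 and 941 FPKM in control and 1279, 1312 and 1279 FPKM in H2O2, a log2 fold change of 0.48 that became -0.13 with the second offsets. Aldehyde dehydrogenases and aldo-keto reductases, which remove reactive aldehydes, had 8 rises and 1 fall among 11 (7 and 1, then 6 and 1), with Akr1a1 up 1.3-fold from 106 ± 1.14 to 137 ± 2.06 FPKM.

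The phosphatase subunits Ppp1r15a and Ppp1r15b changed in opposite directions. Of 31 subunits of protein phosphatases 1 and 2A 13 rose and 8 fell (13 and 5, then 14 and 8). Ppp1r15a, the inducible subunit that reverses phosphorylation of eIF2alpha, was at 10.4, 9.76 and 9.73 FPKM in control and 16.4, 14.3 and 15.1 FPKM in H2O2, a rise of 1.54-fold. Ppp1r15b, the constitutive subunit for the same step, was at 23.2, 23.2 and 22.7 FPKM in control and 12, 12.6 and 12.2 FPKM in H2O2, a fall of 1.86-fold (adjusted p = 6.38e-10). Neither overlapped between groups. The 14-3-3 adaptors had 3 rises and 1 fall among 6 (3 and 1, then 2 and 3), and serpins 4 and 1 among 7 (4 and 1, then 2 and 1). Galectins had 3 rises and 1 fall among 5 (2 and 1, then 2 and 1), and septins 1 and 3 among 8 (4 and 2, then 4 and 3).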

How the data were processed

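The authors deposited estimated counts per gene in whole numbers for 55401 genes, and a table with these counts and FPKM values for the 30411 genes with a count; aligner and counter: not given in the sources used here. The submitters' processing notes name the human build hg38, whereas 30318 deposited gene identifiers matched mouse GENCODE M21, 99.5% at the same GRCm38 start. The values 4, 8 and 12 were over-represented (6156 cells of 4 against 2916 of 3), so a deposited count may exceed the fragments behind it. The plan had assumed raw counts; the same test was used. Library totals of 55395418 to 65666622 set the precision.

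The 3 control and 3 H2O2 libraries were fitted with edgeR 4.0.16 in R 4.3.3 (TMM scaling, filterByExpr by group, quasi-likelihood test, Benjamini-Hochberg adjustment over all tested genes, calls at adjusted p under 0.05). Log2 fold changes come from this fit to the deposited counts, CPM from edgeR with TMM-scaled libraries, and FPKM is as the authors deposited it. Offsets were each library's trend of log2 CPM on log length and GC content (splines with 5 degrees of freedom). The length there was the one implied by the deposited counts and FPKM. Alternatives used DESeq2 1.42.0 and limma 3.58.1 on log2(FPKM + 0.1) and log2(FPKM + 1); scipy 1.17.1 gave permutation tests. The fit was tested on simulated data.

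The members and lists were chosen with earlier results of these data known. Named were the 15 largest rises and falls among called, well-expressed, nuclear protein-coding genes with no overlap between groups, the 8 largest gains and losses in FPKM, and, in each family with at least 5 well-expressed members, the largest rise, the largest fall and the highest level; a few further family members were named after their values were seen. Families were matched on GENCODE or deposited symbols, protein-coding only, and some name patterns were corrected once the symbols in the files were known. A few genes and families that these rules select are not reported here.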

Additional observations from a re-analysis of the deposited data

How the results depend on the processing

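The counts of called genes moved by less than 1.5 times under 19 alternatives: 7473 to 9352 in all (DESeq2 9352), 3549 to 4675 higher and 3151 to 4677 lower; well-expressed calls ran from 4416 (minimum of 10 FPKM) to 7942 (1 FPKM). Leaving out each library in turn gave 8017 to 8229 calls. With the replicate number as a block (replicate block) 8596 genes were called. Deviations of same-numbered libraries from their group means correlated at -0.285, -0.0833 and 0.256, and those of other matches at -0.294 to 0.332. Such deviations cancel within each group, so mixed signs arise in any case. These values therefore do not decide whether the samples were paired. Of 196 named genes 0 changed direction and 7 lost their call under some alternative without offsets (Atp1b3, Ehmt2, Kif22, Tomm70a, Trim28 and Trim47 among them). Technical and biological parts of the length trend were not separated.

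The first length and GC offsets, without and with the replicate block, turned the log2 fold change of Abcf2 (-0.02), Actr2 (0.03), Atp1b3 (-0.03), Cnot1 (0.01), Ddx5 (0.10), Dync1h1 (0.00), Efna1 (-0.04), Kif20a (0.01), Tomm70a (0.36), Vps4b (0.12) and Ykt6 (-0.12). The second offsets, chosen after seeing the data, turned Abcf2 (-0.09), Arpc2 (-0.02), Atp1b3 (-0.22), Cnot1 (0.10), Ddx5 (0.08), Dync1h1 (0.17), Efna1 (-0.15), Ehmt2 (0.15), Fkbp15 (0.05), Flna (0.07), Polr2m (-0.13), Rab7 (-0.07), S100a11 (-0.13), Snx3 (-0.05), Tomm70a (0.28), Tuba1b (-0.08), Usp39 (-0.06), Vps4b (0.08), Ykt6 (-0.18) and Ywhae (-0.04). Removal of a length trend is built into these fits.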

Other observations

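Some noncoding genes changed more than most coding ones, and they were picked after their values were seen. Of 30 well-expressed long noncoding genes 14 were called higher and 7 lower, beside 45.4% and 33.1% of all well-expressed genes. With the first offsets 11 were higher and 8 lower, and with the second 7 and 11. The values that follow carry no length offsets. Hosts of small nucleolar RNAs were among the larger rises: Snhg12 was at 5.18, 4.14 and 4.88 FPKM in control and 14.9, 15.2 and 15.5 FPKM in H2O2, Snhg8 at 8.83, 10.9 and 11 FPKM against 29, 29.6 and 27.7 FPKM, and Dancr at 1.53, 1.65 and 1.01 FPKM against 6.42, 6.21 and 6.68 FPKM. Snora78 was at 0.196, 0.562 and 0.502 FPKM in control and 10.7, 7.8 and 9.06 FPKM in H2O2, and so short an RNA can share reads with its host gene. The snRNA locus Gm24265 was listed at 0 in all 3 control libraries and at 4.42, 5.33 and 5.64 FPKM in H2O2. In the other direction Malat1, a long nuclear RNA, was at 31.3, 31.4 and 31.2 FPKM in control and 8.69, 8.4 and 8.48 FPKM in H2O2, and Mir22hg at 8.14, 9.31 and 9.67 FPKM against 3.09, 2.64 and 3.06 FPKM. No groups overlapped for these genes, but they were picked by their values, and 81.6% of well-expressed genes did not overlap either. Snhg12, Dancr, Snora78 and Gm24265 reached a mean of 5 FPKM only in H2O2, so they had to be higher there.

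Transcription factors as annotated in the deposited table had more falls than rises. Of 425 well-expressed factors 94 were called higher and 233 lower, beside 45.4% rises and 33.1% falls over all well-expressed genes. Their median log2 fold change was -0.21, beside 0.07 for 6676 other well-expressed protein-coding genes. With the first offsets the medians were -0.08 and 0.10, and with the second -0.09 and 0.02. The parentheses that follow give falls and rises with the first offsets, then with the second. C2H2 zinc finger factors had 53 falls and 16 rises among 97 (45 and 16, then 49 and 13). Homeobox factors had 11 and 3 among 21 (9 and 2, then 9 and 2). ETS factors had 8 and 1 among 11 (5 and 2, then 6 and 2), and E2F factors 3 and 4 among 7 (3 and 2, then 3 and 1). Factors of the forkhead family kept a median of -0.47 with the first offsets and -0.41 with the second, against -0.47 without.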
